A study of Mus musculus with 7 samples.

Results

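The genes described here are 48 mouse genes of the cell division cycle, out of 23725 genes counted, followed in GFP-positive osteoblasts sorted from bone and marrow. They were chosen by name and taken by the Entrez gene IDs of the count files, and all 48 were found. Sorted by role, 7 act at the step from G1 into S phase, 15 in DNA replication and nucleotide supply, and 26 in mitosis and its preparation.

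The 7 libraries came from single male mice of C57BL/6 background, 4 tumor-bearing and 3 tumor-free, with 2000 sorted cells each. All mice, the tumor-free ones included, belonged to the KP-Ocn-GFP line, which joins a Cre-inducible KrasLSL-G12D allele (KrasLSL-G12D/WT), floxed p53 alleles (p53Flox/Flox) and a GFP reporter of osteocalcin. Tumor-bearing mice had received adenoviral Cre (AdCre) through the trachea and were killed 14 weeks later, and whether tumor-free mice received any virus is not stated. Age was 31 weeks except in the fourth tumor-bearing and the third tumor-free mouse, which were 23 weeks of age. The comparison asks whether a tumor in the lung is accompanied by a change in osteoblasts of distant bone. Marrow cells depleted of blood lineages were pooled with collagenase-digested bone before the sort, so each library holds whichever GFP-positive, CD45-, CD31- and Ter119-negative cells that pool contained.

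A cell enters S phase when cyclin-dependent kinases, switched on by D and E cyclins and held back by inhibitors such as Cdkn1a, release the E2F transcription factors. E2F then drives genes for origin licensing, for the MCM helicase that unwinds DNA and for nucleotide supply. Mitotic genes follow later under Foxm1 and the MuvB complex, whose target promoters often hold CCAAT boxes and an element called CHR. Osteoblast precursors divide, while mature osteoblasts that make osteocalcin mostly do not.

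Libraries held 77127 to 169774 counts, with 6044 to 9273 genes detected in each. Of the osteoblast markers, Col1a1 (type I collagen) had 23 to 96 counts per library, Ibsp (bone sialoprotein) 10 to 51 and Runx2 (the osteoblast-specifying factor) 7 to 35, but Bglap, the osteocalcin gene that drives the reporter, only 0 to 2. Sparc had 14 to 70 counts, Col1a2 11 to 31 and Phex 5 to 27. The others were sparse: Spp1 had 1 to 14, Alpl 1 to 7, Sp7 and Dmp1 0 to 2 each and Bglap2 0 to 1. The summed level of 12 osteoblast markers was 1096 to 1582 CPM (counts scaled to library size) with a tumor and 1538 to 2555 CPM without. Pecam1 (CD31) had 0 counts in every library and Ptprc (CD45) 0 to 2. Of the 12 neutrophil precursor markers 9 had 0 counts everywhere, as had 8 of 12 B cell precursor and 9 of 12 endothelial markers. Neutrophil precursor markers summed to 0 CPM in each tumor-bearing library and to 8.14 to 16.9 CPM in the tumor-free ones, and B cell precursor markers to 10.2 to 51.9 CPM and 16.3 to 50.6 CPM. Erythroid markers, 10 of the 12 found in the files, summed to 84.8 to 156 CPM with a tumor and 130.2 to 206 CPM without, endothelial markers to 0 to 11.8 and 0 to 19.6 CPM, and chondrocyte markers to 648 to 2833 and 968 to 1175 CPM. Among the chondrocyte markers Sox9 had 41 to 166 counts per library and Col2a1 1 to 92, and the others at most 16. In sorted bulk samples such as these, fewer dividing cells and less RNA per dividing cell cannot be told apart. The part of other cell types in the levels below was not tested.

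Most cell cycle genes were barely counted, as were most genes of these libraries, and a handful carried nearly all of the members' counts. The 48 genes held 4073 of the 830673 counts. Their share was 0.475% (95% Wilson interval 0.428% to 0.526%), 0.514%, 0.461% and 0.502% in tumor-bearing replicates 1 to 4 and 0.464%, 0.487% and 0.536% in tumor-free replicates 1 to 3. The groups overlapped, with means of 0.488% ± 0.0245 (SD, n = 4) and 0.496% ± 0.0368 (SD, n = 3). Such intervals cover counting error only.

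Mcmdc2 alone held 33.2% of the members' counts, and the 8 most counted members held 91.6%. These 8 were Mcmdc2, Cenpf, Kif11, Ube2c, Tyms, Mcm5, Birc5 and E2f1, and they are also the 8 members that passed the low count filter of the test (16.7% of the members, against 10.5% of all genes). The other 40 members shared 342 counts. Over all genes, those that passed the filter held 84.2% to 87.8% of the counts of a library. The median total over the 7 libraries was 5 counts for the members and 1 count for all genes. Of the 48 genes, 13 were detected in all 7 libraries (27.1%, against 17.7% of all genes) and 7 in none (14.6%, against 43.8%). Between 19 members (tumor-bearing replicate 1, the shallowest library) and 30 members (tumor-free replicate 3) were detected in a library.

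**Figure D1:**
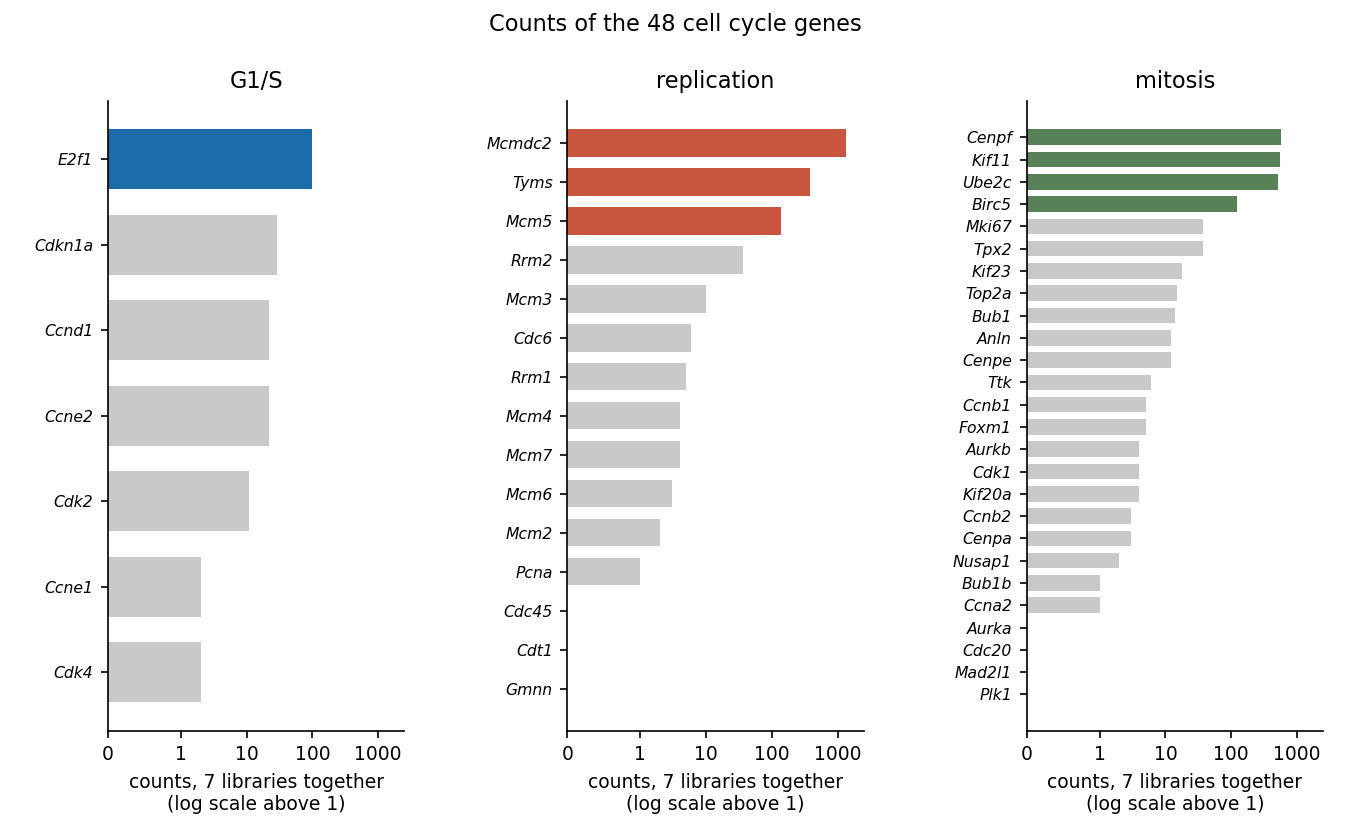
Counts of each of the 48 cell cycle genes over the 7 libraries together, on an axis that is linear up to 1 and logarithmic above, in 3 panels for G1/S, replication and mitosis genes. Coloured bars are the 8 genes that passed the low count filter and grey bars the other 40; Mcmdc2 stands highest with 1353 counts, and 7 genes have no bar because they were at 0.

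Counts came from transcript 3′ ends, so a count stands for a transcript end and was not divided by gene length. Of the 8 well-counted members, 5 had in their longest coding transcript (GENCODE vM21) a 25-base stretch that transcripts of at least 50 genes share, against 3 of the other 40 members. The same held over all genes: 49.8% of 2420 tested genes and 10.3% of 20615 genes below the filter had such a stretch, and among 195 other cell cycle genes listed by role it was 9 of 22 tested and 15 of 173 not tested. Tested genes also had longer transcripts, with a median of 3958.5 against 2431 bases over all genes and 3291.5 against 3018.5 among members. A longer transcript has more places for such a stretch, and length was not accounted for. For each gene the stretch held by most genes is shown, because a read lying wholly within it cannot be assigned to 1 gene by sequence alone. Longer reads that reach past the stretch may be assignable, and read length was not used here. Capitals mark the 25 shared bases.
Birc5: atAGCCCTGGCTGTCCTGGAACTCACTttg
Cenpf: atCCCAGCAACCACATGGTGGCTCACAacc
Kif11: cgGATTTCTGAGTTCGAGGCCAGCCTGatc
Mcm5: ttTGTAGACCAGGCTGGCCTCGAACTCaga
Tyms: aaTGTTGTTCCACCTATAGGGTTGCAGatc

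All 5 stretches lie in the 3′ UTR. The one of Birc5 occurred in transcripts of 700 genes, that of Mcm5 in 586, that of Kif11 in 520, that of Cenpf in 473 and that of Tyms in 120. Those of Mcm5, Cenpf and Kif11 begin and end within the last 500 bases of the transcript (54, 97 and 317 bases before the end), and those of Birc5 and Tyms lie further inside (865 and 1866 bases before the end). Whether the counts of these genes came from the shared stretches was not tested.

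Mcmdc2, Ube2c and E2f1 had no such stretch. Mcmdc2 and Kif11 had an A-rich stretch, a place with at least 11 A in 12 bases where an oligo-dT primer can anneal inside a transcript, shown next with the A-rich bases in capitals.
Mcmdc2: tctatacctAATAAAAAAAAAggaaaaatt
Kif11: ccctgtctcAAAAAAACAAAAgaaatagaa

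In Mcmdc2 it lies in the coding part, 1158 bases before the transcript end, and in Kif11 in the 3′ UTR, 254 bases before it. A-rich stretches were as common among the 40 sparse members (10 of 40) as among the 8 tested (2 of 8), and 39.2% of all tested genes had one against 14.1% of those not tested. Transcript length was not accounted for here either.

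**Figure D2:**
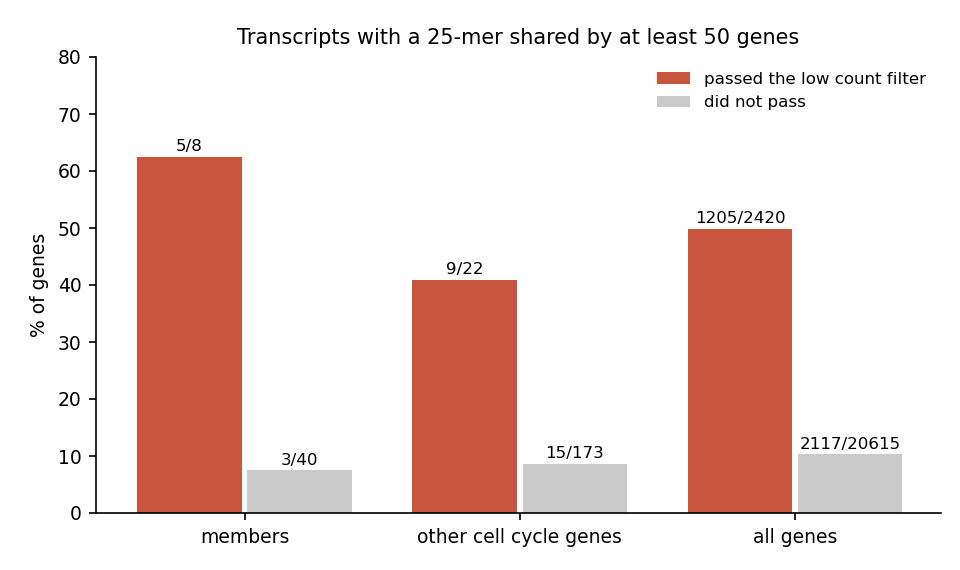
Share of genes, in percent, whose longest coding transcript holds a 25-base stretch found in transcripts of at least 50 genes, for the 48 members, the 195 other cell cycle genes and all genes. Red bars are genes that passed the low count filter and grey bars genes that did not; the numbers above give genes with the stretch over genes in the bar, 5 of 8 and 3 of 40 for the members.

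The first of the role groups, the G1/S genes, was represented mainly by E2f1, the transcription factor that opens S phase (chromosome 2). E2f1 had 8, 10, 17 and 17 counts in tumor-bearing replicates 1 to 4 and 19, 10 and 16 counts in tumor-free replicates 1 to 3. The highest and the lowest level, scaled to library size, were both in tumor-free libraries, so the groups overlapped. The level was 106 ± 8.92 CPM with a tumor (SD, n = 4) and 134 ± 51.3 CPM without (SD, n = 3). The log2 fold change, tumor-bearing over tumor-free, was -0.33 (95% interval -1.11 to 0.45; adjusted p = 0.990, edgeR's quasi-likelihood test), -0.40 among 31-week mice and 0.057 without tumor-free replicate 1.

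The cyclins and kinases of this step were sparse. Cdkn1a, the p21 inhibitor that p53 induces, had 4, 6, 1 and 2 counts in the tumor-bearing and 11, 2 and 3 counts in the tumor-free libraries. Tumor-free replicate 1 thus held 11 of its 29 counts. Ccnd1, the cyclin D1 that starts the G1 program, had 0, 4, 6 and 6 against 1, 2 and 3 counts. Ccne2, a cyclin that drives S phase entry, had 2, 1, 3 and 2 against 4, 7 and 3 counts. Its partner kinase Cdk2 had 11 counts in all, and the D cyclin kinase Cdk4 and the second E cyclin Ccne1 had 2 counts each. For Cdk4 the last 500 bases overlap exons of Tspan31 on the opposite strand, which had 46 counts. Reads from the paired strands cannot be told apart unless strand was used in counting, and the sources used here do not state it. Such an opposite-strand overlap was found for 8 of the 48 members, namely Cdk4, Ccnd1, Ccne2, Mcmdc2, Mcm7, Kif20a, Ccna2 and Cdc20. The share over all genes was not computed, and whether the overlap altered the counts of these members was not tested.

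Replication genes were led by a gene outside the replication fork. Mcmdc2 (Entrez 240697, chromosome 1, 9906157 to 9943606, GRCm38.p6) encodes a protein with an MCM domain that is known in the mouse for meiotic recombination and is not a subunit of the MCM2 to MCM7 helicase. It had 118, 181, 236 and 236 counts in the tumor-bearing and 170, 196 and 216 counts in the tumor-free libraries, and ranked 12 among all 23725 genes. The highest count of any gene in a library was 282 to 303, in shallow and deep libraries alike. The lowest level of Mcmdc2, 1316 CPM, was in the deepest library, tumor-bearing replicate 3. Whether counts have an upper limit that compresses its levels was not tested. Single libraries lay between 1316 and 1898 CPM, and the means were 1603 ± 238 CPM with a tumor (SD, n = 4) and 1702 ± 60.9 CPM without (SD, n = 3). The log2 fold change was -0.08 (95% interval -0.50 to 0.33; adjusted p = 0.990, edgeR) and -0.07 among 31-week mice. The last 500 bases of its longest coding transcript overlap an exon of Snhg6, a non-coding RNA on the opposite strand, which had 0 counts in all 7 libraries.

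Of the 6 helicase subunits Mcm5 was the only one that passed the filter. Mcm5 (chromosome 8) had 8, 13, 33 and 25 counts with a tumor and 29, 15 and 17 without. Tumor-free replicate 1 had the highest level, and the other tumor-free libraries lay among the tumor-bearing ones. Levels were 149.7 ± 34.7 CPM (SD, n = 4) and 184 ± 88.1 CPM (SD, n = 3), and the log2 fold change was -0.23 (95% interval -1.09 to 0.64; adjusted p = 0.990, edgeR). It was -0.46 among 31-week mice and 0.26 without tumor-free replicate 1. The other subunits had far fewer counts over the 7 libraries together: Mcm3 10, Mcm4 4, Mcm7 4, Mcm6 3 and Mcm2 2. All 4 counts of Mcm4 were in tumor-free replicate 1 and all 4 of Mcm7 in tumor-bearing replicate 4. Subunits of 1 complex that act in equal number thus differed from 2 to 140 counts.

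Licensing and loading factors were at or near 0. Cdc6, which loads the helicase, had 0, 0, 1 and 3 against 0, 1 and 1 counts. Its partner Cdt1, the Cdt1 inhibitor Gmnn and the helicase activator Cdc45 had 0 counts in all libraries, and Pcna, the sliding clamp, had 1 count. A count of 0 allows up to 3 counts, which over the 7 libraries together correspond to 3.61 CPM, and in single libraries to between 17.7 and 38.9 CPM.

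Of the genes of nucleotide supply, Tyms, the thymidylate synthase that makes dTMP (chromosome 5), was well counted, with 15, 59, 76 and 76 counts with a tumor and 29, 48 and 76 without. Tumor-bearing replicate 1 and tumor-free replicate 1 had the lowest levels, and the groups overlapped. Means were 441 ± 179 CPM (SD, n = 4) and 439 ± 171 CPM (SD, n = 3), with a log2 fold change of 0.10 (95% interval -0.76 to 0.96; adjusted p = 0.991, edgeR). It was 0.28 among 31-week mice, -0.14 without tumor-bearing replicate 2 and -0.08 without tumor-free replicate 1. Tyms-ps, a processed pseudogene on chromosome 10, had 6, 18, 31 and 17 against 10, 15 and 23 counts, between 22.4 and 40.8 for every 100 counts of Tyms. Of the 25-base words of Tyms-ps, 41.9% also occur in the Tyms transcript. That share is over the whole transcript, whereas counts came from transcript ends. Whether reads were split between Tyms and Tyms-ps, which would alter the Tyms level, was not tested. Rrm2, the small subunit of ribonucleotide reductase, had 2, 5, 7 and 5 against 5, 6 and 6 counts. Its large subunit Rrm1 had 5 counts in all.

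Mitotic genes with signal were Cenpf, Kif11, Ube2c and Birc5. Cenpf (chromosome 1), a large kinetochore-associated protein, had 71, 64, 110 and 118 counts with a tumor and 50, 77 and 78 without. Scaled to library size, tumor-bearing replicates 1, 2 and 4 (671 to 952 CPM) stood above every tumor-free library (492 to 652 CPM), and replicate 3 (613 CPM) lay among them. The level was 761 ± 151 CPM (SD, n = 4) against 595 ± 89.0 CPM (SD, n = 3). The log2 fold change of 0.35 was the largest of the 8 members in the positive direction, and its 95% interval ran from -0.20 to 0.91 (adjusted p = 0.990, edgeR). It was 0.36 among 31-week mice.

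Kif11, the motor that pushes spindle poles apart (chromosome 19), had 56, 73, 110 and 92 against 64, 90 and 76 counts. Levels of the groups lay over each other at 690.1 ± 79.2 CPM (SD, n = 4) and 672 ± 78.3 CPM (SD, n = 3), with a log2 fold change of 0.02 (95% interval -0.45 to 0.49; adjusted p = 0.994, edgeR). Ube2c, the ubiquitin-conjugating enzyme of the anaphase-promoting complex (chromosome 2), had 60, 64, 90 and 80 against 51, 83 and 82 counts. Its levels overlapped as well, at 631 ± 136 CPM (SD, n = 4) and 626 ± 108 CPM (SD, n = 3), with a log2 fold change of -0.02 (95% interval -0.61 to 0.58; adjusted p = 0.994, edgeR). Among 31-week mice the log2 fold changes were 0.02 for Kif11 and 0.11 for Ube2c. The signs of Kif11, Ube2c and Tyms turned with the setting used.

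Birc5 (survivin, chromosome 11), a subunit of the chromosomal passenger complex, had 10, 10, 29 and 17 against 10, 28 and 19 counts. Tumor-free libraries held both its highest and its lowest level, 237 CPM in replicate 2 and 98.5 CPM in replicate 1. Means were 129 ± 24.7 CPM (SD, n = 4) and 164 ± 69.7 CPM (SD, n = 3), and the log2 fold change was -0.35 (95% interval -1.17 to 0.47; adjusted p = 0.990, edgeR), -0.31 among 31-week mice and 0.03 without tumor-free replicate 2. Aurkb, the kinase of the same complex, had 4 counts in all.

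**Figure D3:**
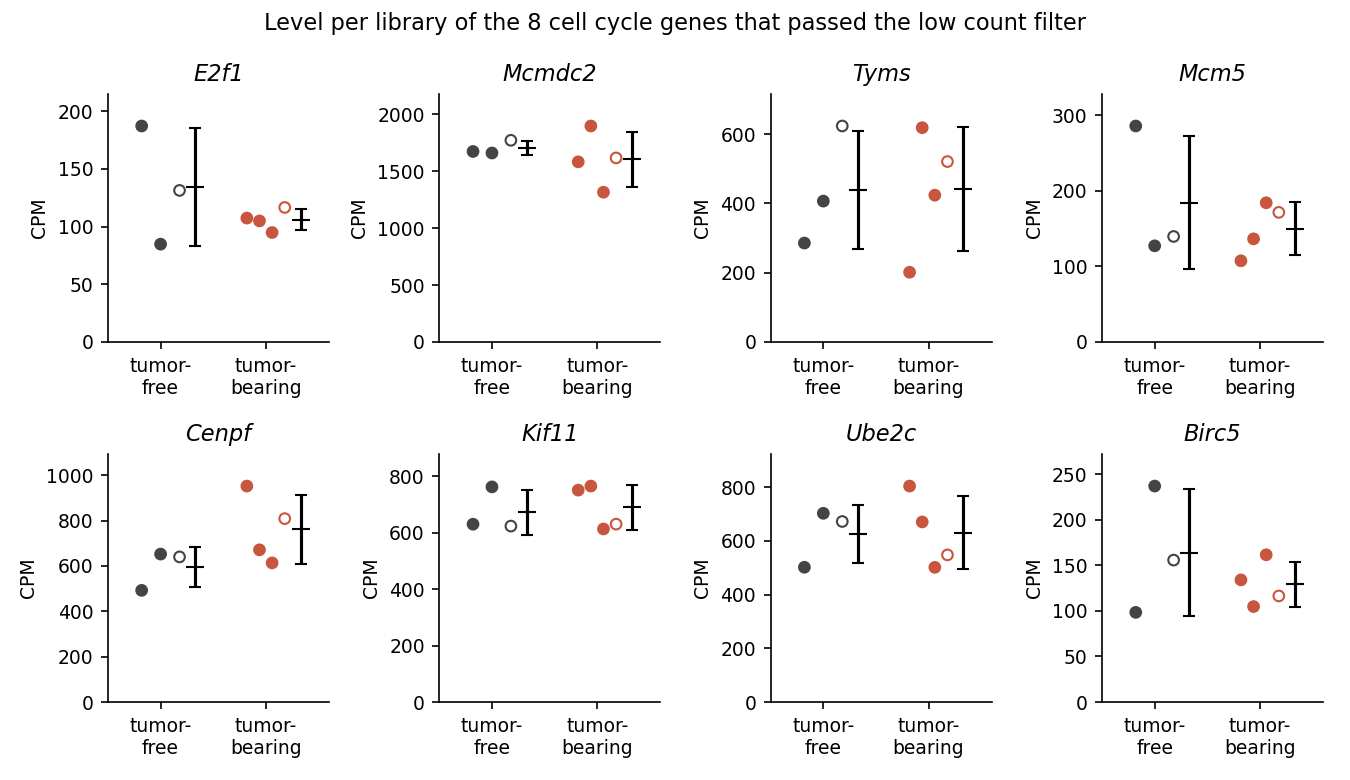
Level in CPM of the 8 tested genes in each library, with tumor-free libraries in grey and tumor-bearing ones in red; open circles are the 23-week mice. Horizontal marks and bars give the mean and SD of each group, and the groups overlap in all 8 panels.

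The genes most often used to score proliferation were among the sparse ones. Mki67, the Ki-67 antigen gene, had 1, 2, 12 and 3 counts with a tumor and 2, 10 and 7 without. Tpx2, a spindle assembly factor, had 4, 3, 13 and 7 against 2, 6 and 2 counts, and Kif23, a motor of cytokinesis, 2, 0, 9 and 1 against 0, 3 and 3. The deepest library, tumor-bearing replicate 3, held the most counts of all 3 genes. Top2a, which untangles chromosomes, had 15 counts in all, the checkpoint kinase gene Bub1 14, and Cenpe and Anln 12 each. Between 1 and 6 counts in all were seen for Ttk, Ccnb1, Foxm1, Cdk1, Kif20a, Cenpa, Ccnb2, Nusap1, Ccna2 and Bub1b. The mitotic kinases Plk1 and Aurka, the anaphase activator Cdc20 and the checkpoint protein gene Mad2l1 had 0 counts in all 7 libraries. The 4 counts of the master mitotic kinase Cdk1 were all in tumor-bearing replicate 4, and the 4 of Kif20a in tumor-free replicate 1. Across the sparse members, 8 were seen in 1 library only.

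Summed over a role group, the libraries of both groups overlapped. The 7 G1/S genes summed to 202 ± 39.1 CPM with a tumor (SD, n = 4; 156 to 252) and 265 ± 77.7 CPM without (SD, n = 3; 212 to 354). The 15 replication genes summed to 2260 ± 378 CPM and 2431 ± 187 CPM, of which Mcmdc2 made up most: without it they summed to 657 ± 224 and 729 ± 126 CPM. The 26 mitotic genes summed to 2400 ± 264 CPM and 2288 ± 313 CPM, and without Cenpf to 1638 ± 156 and 1693 ± 229 CPM, so that the order of the mitotic means turned when 1 gene was left out. It also turned without tumor-bearing replicate 1 (difference of means -25.3 CPM) and without tumor-free replicate 1 (-50.5 CPM), against 112 CPM with all libraries.

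None of the 8 tested members passed the test between tumor-bearing and tumor-free mice. edgeR's quasi-likelihood test, with age as a term and p-values adjusted over all 2495 genes tested, called 0 genes higher and 0 lower (0% of genes in each direction), and none at any setting tried. At an unadjusted p under 0.05 edgeR marked 0 of the 8 members, against 0.922% of all tested genes higher and 1.88% lower, and DESeq2 and limma voom marked 0 as well. Adjusted over all genes, DESeq2 and limma voom also called 0 genes. The groups did not overlap for 0 of the 8 members, against 3.33% of all tested genes. The median log2 fold change of the 8 was -0.05, with 3 above 0 and 5 below, beside 0.01 over all tested genes, of which 49.1% were below 0. The 95% intervals of the 8 reached between 0.42 and 0.87 to either side, so that differences of 2-fold were outside the interval for some members (Mcmdc2, Cenpf, Kif11, Ube2c and Tyms) and inside it for E2f1, Mcm5 and Birc5. Mcmdc2 reached 236 counts where no gene passed 303 in any library. Whether an upper limit of the counts narrowed its interval was not tested. The 40 sparse members did not pass the low count filter. With no filter 41 of the 48 members entered the test, all but the 7 at 0, and edgeR again called 0 genes.

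**Figure D4:**
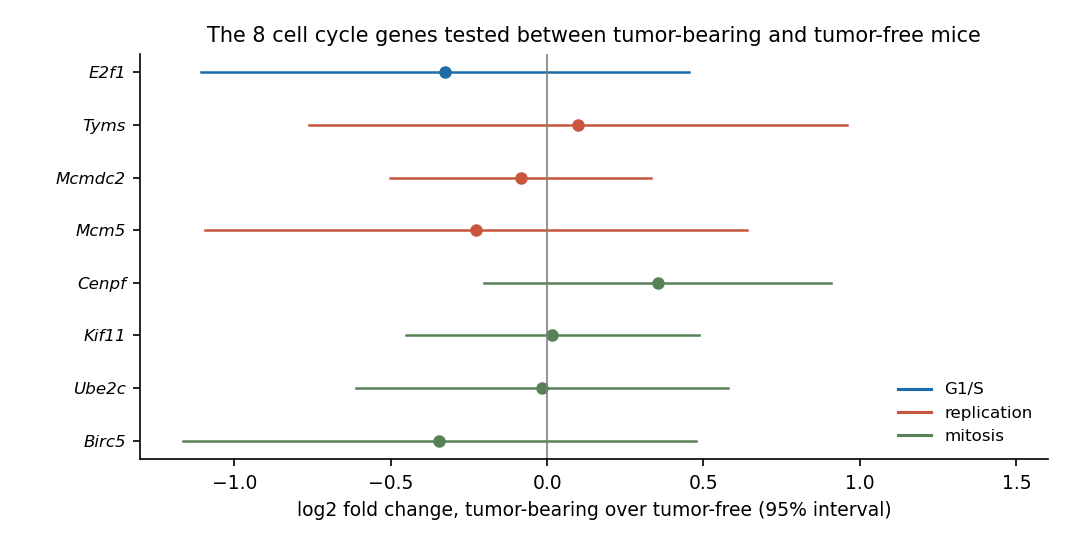
Log2 fold change, tumor-bearing over tumor-free, of the 8 tested members (points) with its 95% interval (lines), coloured by role. Every one of the 8 intervals includes 0, and the points run from -0.35 (Birc5) to 0.35 (Cenpf).

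Of the 195 other cell cycle genes, 22 passed the low count filter. Of these 0 passed the test (edgeR, adjusted), 9 lay above 0 and 13 below, with a median log2 fold change of -0.07. The groups overlapped for all 22. At an unadjusted p under 0.05 edgeR marked 1 of the 22, on the lower side.

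Among other replication genes, Pola2, a subunit of the polymerase that primes DNA synthesis, had 870.5 ± 111 CPM with a tumor (SD, n = 4) and 762 ± 76.0 CPM without (SD, n = 3; log2 fold change 0.19). Mcm8, a helicase of DNA repair, had 162 ± 24.8 against 190.2 ± 43.2 CPM (-0.22). Without tumor-bearing replicate 4 Mcm8 was at -0.04, as it was without tumor-free replicate 3, and with 1 library left out it reached -0.44. Neither difference passed. In the G1/S group, Rbbp4, a histone-binding subunit of the MuvB complex, had 597 ± 442 against 302 ± 134 CPM (0.91), and its tumor-bearing libraries spanned 18 to 98 counts. Without tumor-bearing replicate 1 its log2 fold change was 0.41, without tumor-free replicate 1 0.51 and with limma voom 0.47, and with 1 library left out it reached 1.23. Cdk7, the kinase that activates other cyclin-dependent kinases, had 136 ± 61.8 against 206 ± 60.6 CPM (-0.49), and its log2 fold change lay between -0.83 without tumor-bearing replicate 3 and -0.20 without tumor-free replicate 1. Cdkn1b, the p27 inhibitor that holds cells in quiescence, had 27, 47, 109 and 76 counts with a tumor and 67, 82 and 59 without (496 ± 102 against 613 ± 113 CPM; log2 fold change -0.29, 95% interval -0.87 to 0.30; -0.16 without tumor-bearing replicate 1 and -0.45 without replicate 4). Cdkn1b was thus far better counted than Cdkn1a and than the other kinase inhibitors detected, Cdkn2a with 2 to 6 and Cdkn1c with 0 to 2 counts per library.

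Among other mitotic genes, Prc1, which bundles the central spindle, had 538 ± 149.7 against 382 ± 85.3 CPM (log2 fold change 0.48), and Cenpl, a centromere protein, 269 ± 85.9 against 375 ± 147 CPM (-0.45). Without tumor-free replicate 1 Cenpl was at -0.08, and without tumor-free replicate 2 at -0.75. Prc1 lay between 0.30 and 0.73 with 1 library left out. Cdca7, a cell division cycle associated gene, was listed under mitosis, though a role there was not checked. It had 274 ± 343 against 145 ± 61.8 CPM (0.75), and tumor-bearing replicate 4 alone held 115 of the 200 counts. Without that library its log2 fold change was -0.11, and without tumor-free replicate 3, the other 23-week mouse, -0.12. None of these genes passed (adjusted p = 0.990 each, edgeR).

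The promoters of the members were searched for motifs of cell cycle genes, as a description with no test between roles. RefSeq promoter sequence (GRCm38.p6) was at hand for 38 of the 48 members, 5 G1/S, 12 replication and 21 mitosis genes, and the 250 bases before each start were searched on both strands. A CCAAT box (CCAAT) was present in 17 of 21 mitotic promoters (81%), 9 of 12 replication promoters (75%) and 1 of 5 G1/S promoters (20%), and in 34.5% of all promoters. The CHR letters TTTGAA were in 7 of 21 mitotic (33.3%), 2 of 12 replication (16.7%) and 0 of 5 G1/S promoters, against 16.3% of all. An E2F site (TTTCCCGC, TTTCGCGC, TTTGCCGC or TTTGGCGC) was in 4 of 12 replication (33.3%), 1 of 5 G1/S (20%) and 1 of 21 mitotic promoters (4.76%), against 1.91% of all. The 5 G1/S promoters include a window of E2f1 that holds coding sequence and none of these motifs. These shares describe the sequence only, and binding was not measured.

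Among the tested members, the promoters of Ube2c and Kif11 hold CCAAT and CHR letters and that of Mcm5 holds CCAAT and an E2F site. They are shown as the 150 bases before the start given in the RefSeq promoter set, 5′ to 3′ on the strand of the gene. Motif letters are in capitals. The windows are Ube2c at chr2:164769779-164769928, Kif11 at chr19:37376232-37376381 and Mcm5 at chr8:75109359-75109508, all on the plus strand.
Ube2c: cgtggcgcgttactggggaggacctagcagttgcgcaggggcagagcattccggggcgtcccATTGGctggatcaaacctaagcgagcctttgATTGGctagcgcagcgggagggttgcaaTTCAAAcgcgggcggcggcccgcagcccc
Kif11: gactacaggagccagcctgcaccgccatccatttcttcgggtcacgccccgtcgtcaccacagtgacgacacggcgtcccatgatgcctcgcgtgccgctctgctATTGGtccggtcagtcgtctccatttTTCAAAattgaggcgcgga
Mcm5: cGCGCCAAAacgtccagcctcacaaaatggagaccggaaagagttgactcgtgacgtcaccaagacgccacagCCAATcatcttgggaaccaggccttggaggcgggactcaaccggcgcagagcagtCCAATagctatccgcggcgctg

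In Ube2c and Kif11 the CHR letters follow the CCAAT box on the way to the start, both read on the opposite strand (TTCAAA and ATTGG). Of the 8 tested members 7 had a promoter sequence: Cenpf holds CCAAT letters only, and no searched motif was found for E2f1, Tyms and Birc5. The window listed for E2f1 holds coding sequence of the gene, so it may not be its main promoter. For Mcm5 the RefSeq gene record begins at chr8:75109468. The end of the Mcm5 window, with its second CCAAT box, therefore lies within the gene.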

How the data were processed

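Gene expression was measured in 7 libraries of sorted osteoblasts, 1 per mouse, by a 3′ end CEL-Seq protocol with molecular identifiers, per the labels. Alignment tools were TopHat2 2.0.10 and SAMtools, and the build mm10, per the submitters' processing notes. The deposited values are raw whole-number counts per Entrez gene ID. The counting program, its use of strand and any collapse of identifiers: not given in the sources used here. RefSeq (GRCm38.p6, the assembly of mm10) named 23666 of 23725 IDs. No pair of libraries agreed within counting noise (chi-square per degree of freedom 3.57 to 6.85).

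Genes were filtered with filterByExpr (minimum count 10, total 15), which kept 2495, scaled by TMM (0.960 to 1.06) and tested with glmQLFit (robust) and glmQLFTest in edgeR 4.0.16 (R 4.3.3), with age as a term, at a Benjamini-Hochberg adjusted p of 0.05 over all genes tested. CPM are on scaled library sizes, except in the marker lists and the limits of a 0 count, which use total counts. The procedure was also run on simulated data, and its recovery of changes is not reported here. Alternatives were RLE or no scaling, no filter, at least 30 counts in 3 libraries, DESeq2 1.42.0, limma 3.58.1 voom with quality weights, no age term, 31-week mice only, a replicate block, no robust estimation, and each library left out. Each library is 1 mouse, so p-values measure the spread between mice.

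Members and lists were chosen with earlier results of these data known. Genes with values per library were the tested members and the 3 most counted untested ones of each role; of the other cell cycle genes, up to 3 per role with the smallest p, of which 1 gene is not reported here. Members named with totals were chosen after their values were seen. Shared 25-base words with at least 23 bases of 2 kinds were left out, and the last 100 bases were left out for A-rich stretches.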

Additional observations from a re-analysis of the deposited data

Results flagged for a closer look

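Among the 23 sets of 4 tumor-bearing values checked, 2 had a library far from the others; chance gives about 1 in 20. Mcm8 had 199 CPM in tumor-bearing replicate 2 and 148 to 151 CPM in the other tumor-bearing libraries (gap over range 0.937). Cdca7 had 788 CPM in tumor-bearing replicate 4, a 23-week mouse, and 94.4 to 121 CPM in the others (gap over range 0.962). The part of age in these values was not tested.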

How the results depend on the processing

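The count of genes past the threshold was 0 under each of the 17 alternatives, with a lowest adjusted p of 0.0693 with no filter on low counts and 0.369 with DESeq2. The named genes gave 283 values under these alternatives, of which 23 had the other sign, all in genes whose change did not pass. With age as a term, leaving out either 23-week mouse gives nearly the same comparison as 31-week mice only. The alternatives are therefore not all separate checks. Ube2c was 0.0045 with total counts only, 0.032 with no filter, 0.0049 with the stricter filter and 0.105 in 31-week mice; Kif11 was -0.0065 with limma voom and Cdca7 -0.12 in 31-week mice. With each library left out in turn, the log2 fold changes ranged from -0.059 to 0.073 for Kif11, -0.14 to 0.28 for Tyms, -0.18 to 0.11 for Ube2c, -0.63 to 0.057 for E2f1, -0.51 to 0.26 for Mcm5, -0.65 to 0.031 for Birc5 and -0.12 to 1.12 for Cdca7. With no filter 7 G1/S, 12 replication and 22 mitotic members were tested, and with the stricter filter 0 G1/S members, as the filters' construction implies. The replicate number as a block, without tumor-bearing replicate 4 and with no age term, called 0 genes and gave 0.044 for Ube2c, -0.14 for Tyms and -0.50 for Cdca7. In that setting replicate 3 joins a 31-week tumor-bearing and a 23-week tumor-free mouse, so age and tumor cannot be told apart within it. Same-numbered libraries did not deviate together (correlations -0.21, -0.12 and -0.15). Differently numbered ones ran from -0.27 to 0.24. With so few mice these values cannot exclude pairing, so whether the numbers pair the mice is not known. Depth is a limit, since 40 of 48 members did not pass the low count filter. With 1 library left out Cenpf lay between 0.22 and 0.44 and Mcmdc2 between -0.19 and -0.016.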
